A study of Mus musculus with 8 samples.

Results

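Integrins are the receptors through which cells hold on to the extracellular matrix. On the inner side of the membrane, adaptor proteins join them to actin filaments at focal adhesions, and on the outer side, matricellular proteins tune the grip without building the matrix themselves. In heart muscle, integrin adhesion sits at the costameres and carries mechanical load, and matricellular proteins are known to be made in larger amounts when the heart is injured or overloaded. Genes of this system were followed here in hearts that lack Mfap4, which encodes a microfibril-associated matrix glycoprotein that binds integrins. They were 2 adaptors on the inner side, Ilk and Zyx, and 2 matricellular genes, Thbs4 and Tnc.

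These are 4 of the 1387 genes for which an array clone could be named: Ilk (Entrez gene 16202), Zyx (22793), Thbs4 (21828) and Tnc (21923). Thbs4 and Tnc were taken by their clone identifiers and Ilk and Zyx through their RefSeq transcripts. Each had 1 spot per array among 20160 clones. The knockout group was 4 male MFAP4-/- mice of genetic background C57BL/6N, aged 19 weeks, whose whole-heart total RNA was hybridised mouse by mouse to spotted cDNA arrays. The control was a single pool of heart RNA from wt males of the same background and age. The pool is given as 4 mice in the channel labels and as 6 in the labelling protocol. Each mouse was set against the pool on 2 arrays, once with its RNA in Cy5 and once in Cy3, so that 8 arrays gave n = 4 separate mice. The pool has no replicate, and its own spread enters no test.

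The arrays gave weak signals as a whole. The share of spots over 2 times their local background ran from 8.03% to 23.8% among arrays for Cy5 and from 4.65% to 35.9% for Cy3. Spots of mice 3 and 4 carry flags in the files, but none of the 4 genes was flagged on any array, and all 4 were among the 8142 clones with a value on all 8 arrays. Mfap4 had no named clone, so the loss of its transcript was not checked here. Of 26 heart muscle markers, 3 had a named clone. Mybpc3 and Myom2, both of the sarcomere's thick filament or M-band, exceeded 2 times background on 8 of 8 arrays. The remaining one, Ldb3, did so on 0 arrays, and it was flagged on 2 arrays and so not tested. Myh6, Tnnt2, Actc1 and the other defining genes were not analysed here. Fewer cells of a type and less RNA per cell cannot be told apart in whole-heart RNA.

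All 4 genes gave signals close to background in both samples. Foreground over local background for Ilk ran from 1.36 to 2.37 in knockout RNA (median 1.75) and from 1.12 to 1.80 in the pool (median 1.52). Zyx ran from 1.36 to 2.04 in knockout RNA (median 1.44) and from 0.979 to 1.74 in the pool (median 1.38). On 1 array, that of mouse 3 in Cy5, the Zyx spot of the pool lay below its local background, at an intensity of 137 against 140. For Thbs4 the range was 1.05 to 2.33 in knockout RNA (median 1.58) and 1.14 to 1.99 in the pool (median 1.43). Tnc lay between 1.09 and 2.43 in knockout RNA (median 1.50) and between 1.16 and 1.98 in the pool (median 1.45). The ranges of knockout and pool overlapped for each gene.

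The mark of 2 times background was passed in knockout RNA on 3 of 8 arrays for Ilk, 2 for Tnc and 1 each for Zyx and Thbs4. In the pool it was passed on 0 of 8 arrays for all 4 genes. Over all spots, too, the share past this mark was mostly higher in knockout RNA. It ran from 8.92% to 35.9% among arrays, against 4.65% to 17.1% in the pool. Only on the Cy3 arrays of mice 3 and 4 was the pool's share the higher. The contrast for the 4 genes is therefore not particular to them. The files hold no call of a spot as present or absent, so this mark describes brightness only. The image software's signal-to-noise value exceeded 3 in 1 of 16 readings for Ilk, Thbs4 and Tnc and in 0 of 16 for Zyx. The ratios that follow therefore come from small differences between signals near background.

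**Figure D1:**
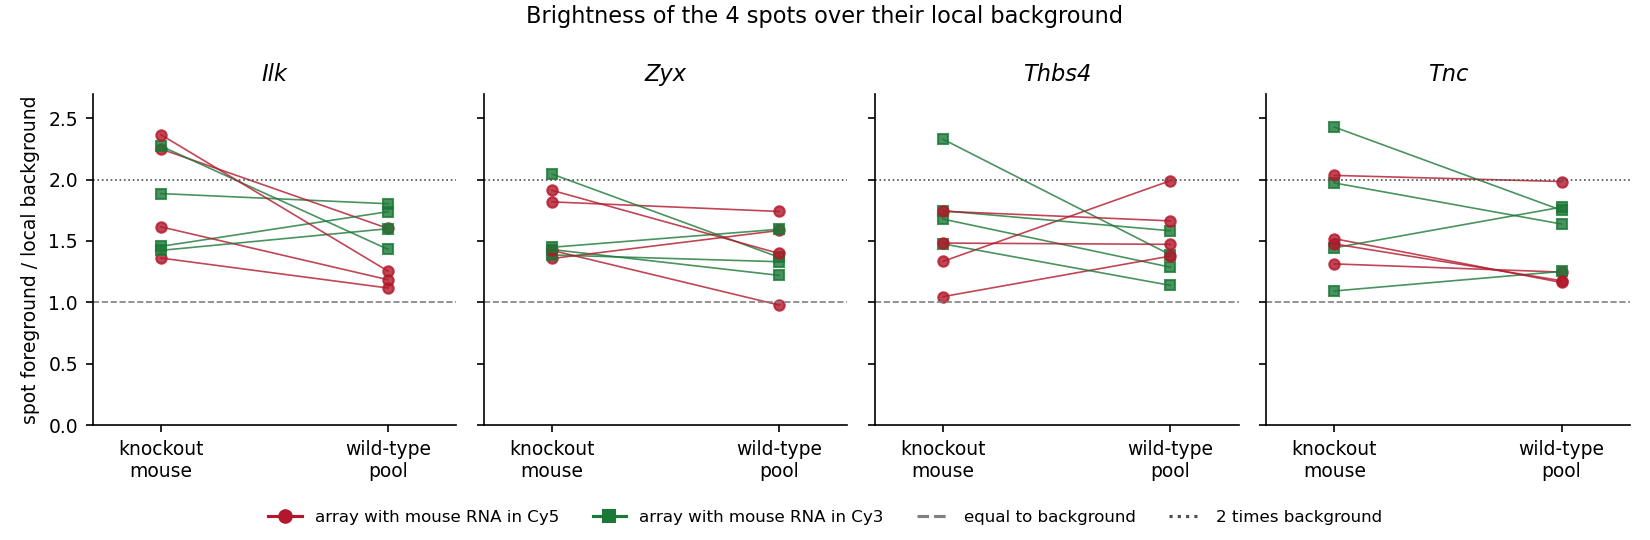
Spot foreground divided by local background for Ilk, Zyx, Thbs4 and Tnc, in the knockout mouse and in the wild-type pool on the same array; each line joins the 2 channels of 1 of 8 arrays, coloured by the dye of the mouse RNA. All pool readings lie under 2 times background, and 3 Ilk, 1 Zyx, 1 Thbs4 and 2 Tnc knockout readings lie above it.

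Ilk encodes integrin-linked kinase, a scaffold that binds integrin tails and, with PINCH and parvin, forms a complex that reaches to actin. Its log2 ratio of knockout over pool, averaged over both arrays of a mouse, was 0.20, 0.52, 0.12 and 0.25 in mice 1 to 4. Ilk was thus above the pool in 4 of 4 mice, with mouse 2 the highest; 12.3% of all tested clones also lay above 0 in 4 of 4 mice. The mean was 0.27 ± 0.089 (limma's moderated SE, n = 4 mice), a fold of 1.21 with a 95% interval from 1.05 to 1.39. The moderated SE borrows from the spread of all clones, and it is the SE given beside each ratio and gap unless a plain one is named; the plain SE of the 4 mice was 0.086. The mean was higher than the ratio of 97.6% of tested clones. With limma's test over all 8142 clones the unadjusted p was 0.0139 and the adjusted p 0.271, so Ilk did not pass the threshold of 0.05. By unadjusted p it stood at rank 418, among 936 clones (11.5%) under 0.05, of which the higher ones made up 5.76% of all tested, and 0% of clones passed the adjusted threshold.

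The sign of the Ilk ratio went with the dye. With the mouse RNA in Cy5, Ilk read 0.68, 0.78, 0.63 and 0.59 in mice 1 to 4. With the mouse RNA in Cy3 it read -0.27, 0.26, -0.39 and -0.10 in the same mice. All 4 Cy5 readings were above every Cy3 reading, and only mouse 2 was above 0 in both. In background-subtracted intensities without normalization, Cy5 was the brighter channel on 7 of 8 Ilk spots, whichever sample it carried. Over all spots, the median was also higher in Cy5 on both arrays of mice 3 and 4 and on the Cy3 array of mouse 1. It was equal in both channels on the Cy5 array of mouse 1 and lower in Cy5 on both arrays of mouse 2. The mean gap between the orientations, Cy5 minus Cy3, was 0.80 ± 0.17 (moderated SE, n = 4 mice; limma adjusted p = 0.0117), against a knockout ratio of 0.27. Of all tested clones, 15.0% had a dye effect past the threshold, 4.64% in this direction and 10.3% in the other. That split depended on the normalization: it was 378 and 842 clones with loess, and 736 and 696 with median centring. The call of the Ilk dye effect ended without mouse 1, 3 or 4 (limma adjusted p = 0.0695, 0.1001 and 0.0719), with gaps of 0.75, 0.72 and 0.83. The adjustment then ran over 8142, 11878 and 9501 clones, so leaving out mouse 3 or 4 also changed the clones tested. Averaging both orientations takes a constant dye effect out of the knockout ratio.

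Zyx encodes zyxin, a LIM-domain protein of focal adhesions and stress fibres that moves to actin under strain and recruits Ena/VASP proteins. Its ratios were 0.21, -0.076, 0.49 and 0.021 in mice 1 to 4. Mice 1 and 3 lay above the pool, while mouse 4 lay close to 0 and mouse 2 below it. Their mean was 0.16 ± 0.10 (moderated SE; adjusted p = 0.589 in limma), with a limma 95% interval from -0.072 to 0.39 and a plain SE of 0.12. In mouse 3, the highest, the ratio was 0.65 on the array on which the pool's spot was below background and 0.33 on the other array. Without mouse 3 the mean was 0.052.

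Zyx showed no dye effect past the threshold. With the mouse RNA in Cy5 the readings were -0.0014, -0.38, 0.65 and -0.098 in mice 1 to 4, and in Cy3 they were 0.42, 0.22, 0.33 and 0.14. It was above 0 on 4 of 4 Cy3 arrays and on 1 of 4 Cy5 arrays. The gap of Cy5 minus Cy3 was -0.23 ± 0.21 (moderated SE, n = 4 mice; limma adjusted p = 0.474), and it took both signs among the mice, from -0.60 in mouse 2 to 0.32 in mouse 3.

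Thbs4 encodes thrombospondin-4, a secreted, calcium-binding glycoprotein of tendon, muscle and heart that binds integrins and collagens. Its log2 ratio of knockout over pool was -0.26, -0.26, 0.37 and -0.14 in mice 1 to 4. Mice 1, 2 and 4 lay below the pool and mouse 3 above it. The mean was -0.071 ± 0.11 (moderated SE, n = 4 mice; limma adjusted p = 0.851), the plain SE was 0.15, and the limma 95% interval ran from -0.33 to 0.18, or from 0.797 to 1.14 as a fold. Without mouse 3 the mean was -0.22, and without mouse 1 or mouse 2 it was -0.0090 or -0.0096.

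Thbs4 had the widest split by dye of the 4 genes, in the direction opposite to Ilk. In Cy5 the mouse RNA read -1.18, -0.86, -0.26 and -0.63 relative to the pool in mice 1 to 4, and in Cy3 it read 0.67, 0.35, 0.996 and 0.36. All 4 Cy5 readings lay below 0 and all 4 Cy3 readings above it. Without normalization, the Cy3 channel was the brighter on 6 of 8 Thbs4 spots, Cy5 on 1, and the 2 were equal on 1. The gap of Cy5 minus Cy3 was -1.33 ± 0.22 (moderated SE, n = 4 mice; limma adjusted p = 0.0038), larger in size than that of 98.7% of tested clones. It stayed past the threshold with any 1 mouse left out (adjusted p from 0.0111 to 0.0355). Taken alone, the 4 Cy5 arrays would place Thbs4 below the pool at -0.74 (limma adjusted p = 0.0321, n = 4 arrays) and Ilk above it at 0.67 (adjusted p = 0.0190), whereas the 4 Cy3 arrays give 0.59 and -0.13 (adjusted p = 0.127 and 0.720). Neither single-orientation value separates the knockout from the dye. Over all clones, the Cy5 arrays alone called 848 of 11326 in limma (208 higher, 640 lower), and the Cy3 arrays alone 0 of 9839.

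Tnc encodes tenascin-C, a hexameric glycoprotein that is scarce in the healthy adult heart, appears at sites of repair and loosens adhesion to fibronectin. It was the gene nearest to the pool. Its ratios were 0.10, -0.0077, 0.036 and -0.13 in mice 1 to 4, on both sides of 0 and within a narrower band than those of the other 3 genes. Their mean was 0.0010 ± 0.079 (moderated SE; adjusted p = 0.997 in limma), with a plain SE of 0.048. Its limma 95% interval, from -0.18 to 0.18, corresponds to folds from 0.884 to 1.13 on this scale, on which dim spots are compressed.

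In Cy5 the mouse RNA read 0.14, 0.28, 0.46 and 0.077 for Tnc in mice 1 to 4, and in Cy3 it read 0.057, -0.29, -0.39 and -0.33. The Cy5 reading was the higher in 4 of 4 mice. The gap of 0.48 ± 0.16 (moderated SE, n = 4 mice) had the direction seen for Ilk and did not pass (limma adjusted p = 0.0680). Over the 4 mice, the mean was 0.24 with the mouse RNA in Cy5 and -0.24 with it in Cy3.

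**Figure D2:**
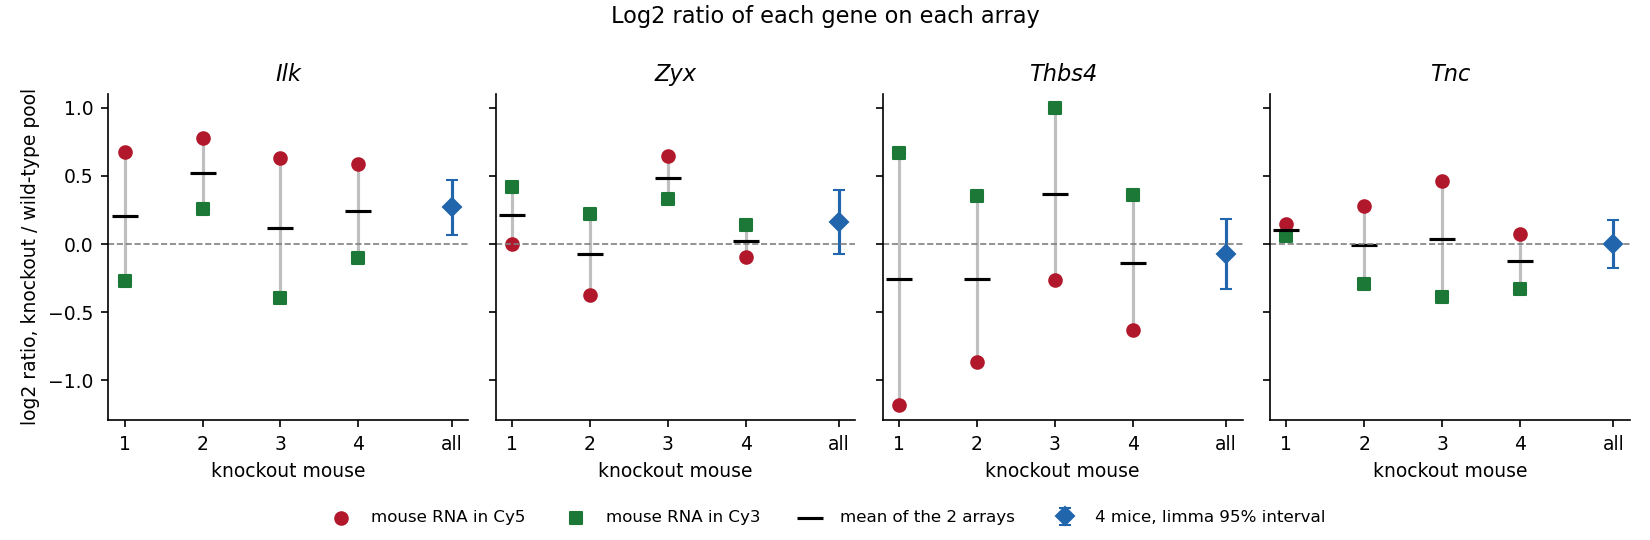
Log2 ratio of knockout over wild-type pool for each gene (y axis) in each of 4 mice (x axis), with the array carrying the mouse RNA in Cy5 (circles) or Cy3 (squares), their mean (bars) and the mean over 4 mice with its limma 95% interval (diamonds). Circles lie above squares in every mouse for Ilk and Tnc and below them for Thbs4; the interval of Ilk lies above 0 before adjustment, and those of Zyx, Thbs4 and Tnc include 0.

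The exact two-sided sign-flip permutation test over the 4 mice gave p = 0.375 for Zyx, 0.625 for Thbs4 and 1 for Tnc. For Ilk it gave the smallest p that 4 mice allow, 2 of 16 sign patterns, so this test cannot pass 0.05. Against all tested clones, whose median log2 ratio was 0.025 with quartiles at -0.059 and 0.10, Ilk and Zyx lay above the upper quartile, Thbs4 below the lower one and Tnc between them. The SD over mice was 0.17 for Ilk, 0.25 for Zyx, 0.30 for Thbs4 and 0.095 for Tnc. Its median was 0.19 over the 4598 dim tested clones and 0.14 over the 3544 brighter ones.

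**Figure D3:**
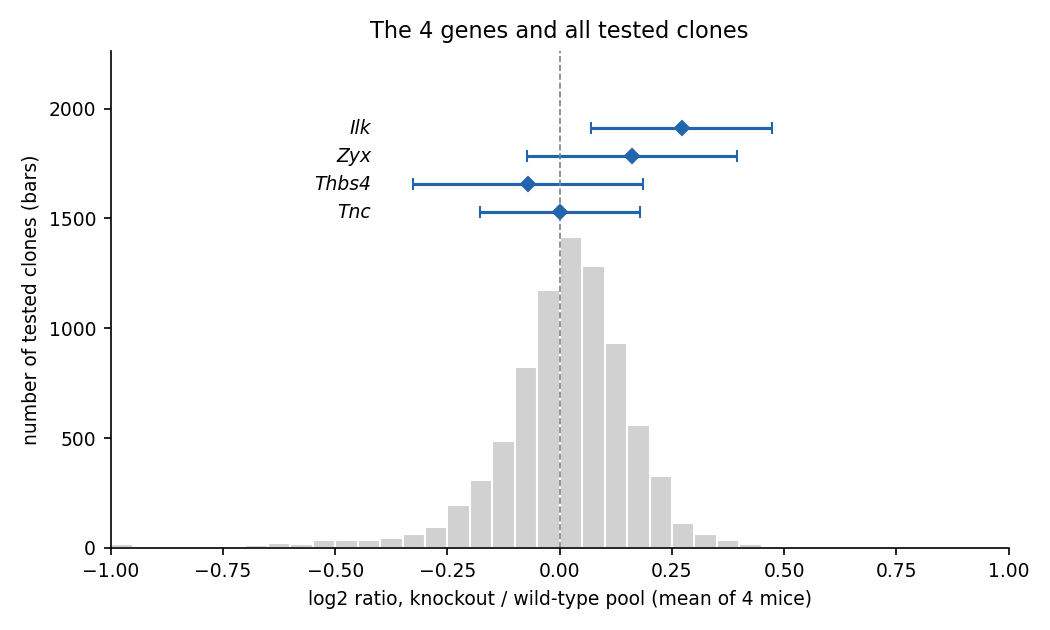
Mean log2 ratio of knockout over wild-type pool for the 4 genes with their limma 95% intervals (diamonds and bars, n = 4 mice), above a histogram of the same mean for all 8142 tested clones (y axis, number of clones in bins 0.05 wide; values beyond -1 or 1 are in the end bins). Ilk, at 0.27, lies in the upper flank of the histogram, Zyx at 0.16, Thbs4 at -0.071 and Tnc at 0.0010.

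The wider adhesion lists put these genes beside others of the same machinery. Of 78 focal adhesion and actin-linkage genes, 9 were named on the array and 8 tested. None passed the adjusted threshold in limma; 1, Ilk, had an unadjusted p under 0.05. The 8 include Ilk and Zyx themselves, and no median was taken without them. Of the 8, 7 lay above 0 and their median was 0.16 on the log2 scale. Of all tested clones, 58.5% lay above 0 and the median was 0.025. With the mouse RNA in Cy3 alone, 4 of 8 lay above 0, with a median of -0.0053, and in Cy5 alone 6 of 8, with a median of 0.26. The median was 0.074 with no background correction (6 of 8 above 0), 0.26 with a normexp offset of 10, 0.28 over the 6 genes with values in the authors' deposited table, and 0.055 over the 2 brighter genes, 1 of them above 0. Csrp1, which encodes a LIM protein that binds zyxin and alpha-actinin, had a mean of 0.24 ± 0.11 (moderated SE; adjusted p = 0.459 in limma), with 0.66, 0.037, 0.28 and -0.0054 in mice 1 to 4. Without mouse 1 it lay at 0.10. Enah, an Ena/VASP protein that zyxin recruits, lay at 0.16 ± 0.091, and Cdc42, a small GTPase of actin remodelling, at 0.16 ± 0.10. Without mouse 2 Enah lay at 0.099, and without mouse 4 Cdc42 lay at 0.047. Rock1, a kinase that raises actomyosin tension, was the 1 gene below 0, at -0.051 ± 0.079.

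The dye effect passed the threshold for 3 of the 8 genes, Ilk, Enah and Pdlim1, and not in 1 direction; the share over all clones was 15.0%. Enah, like Ilk, read higher with the mouse RNA in Cy5 (0.60, against -0.27 in Cy3; limma adjusted p = 0.0208). Pdlim1, a PDZ and LIM protein that binds alpha-actinin, read lower (-0.43, against 0.56 in Cy3; adjusted p = 0.0062), and its mean knockout ratio was 0.066 ± 0.084 (moderated SE, n = 4 mice).

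Of 44 matricellular genes, 6 were named and 5 tested, and 0 passed in limma, with 0 at an unadjusted p under 0.05. Besides Thbs4 and Tnc these were Mgp, an inhibitor of calcification, at 0.044 ± 0.094, Smoc2, a SPARC-related protein, at 0.040 ± 0.082, and Lgals1, a galectin, at 0.028 ± 0.083 (moderated SE, n = 4 mice). These 3 clones exceeded 2 times background on 8, 6 and 8 arrays, so in the main setting the list's brighter members lay within 0.05 of the pool. Thbs4 was the only one of the 5 below 0 in the main setting, though Tnc also lay under 0 in 8 of its 18 alternatives, and the only one with a dye effect past the threshold. The list's median of 0.028 lay at -0.0035 without mouse 1, at -0.011 without mouse 3, at 0.11 with median centring and at 0.16 in the authors' deposited table. With median centring and in that table, Thbs4 and Tnc lay below 0. Mgp, Smoc2 and Lgals1 therefore all lay at or above the list's median there, farther from the pool than in the main setting.

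Few receptors and ligands of the system could be followed. Itga2 was the only one of 26 integrin subunits with a named clone, and it was not tested because of a flag; keeping all spots, its log2 ratio was 0.054 ± 0.066 (plain SE, n = 4 mice). Of 50 integrin ligands, 8 were named and 3 tested: Lama5, a laminin chain, lay at 0.063 ± 0.082, Adam15, a disintegrin protease, at 0.049 ± 0.078, and Vcam1, an adhesion ligand of leukocytes, at -0.074 ± 0.083. Of 20 other adhesion receptors, 3 were tested: Cd47, a thrombospondin receptor, lay at 0.074 ± 0.092, the endocytic receptor Lrp1 at 0.074 ± 0.13, and the collagen receptor Ddr2 at -0.14 ± 0.092. None of these 6 passed the adjusted threshold in limma.

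**Figure D4:**
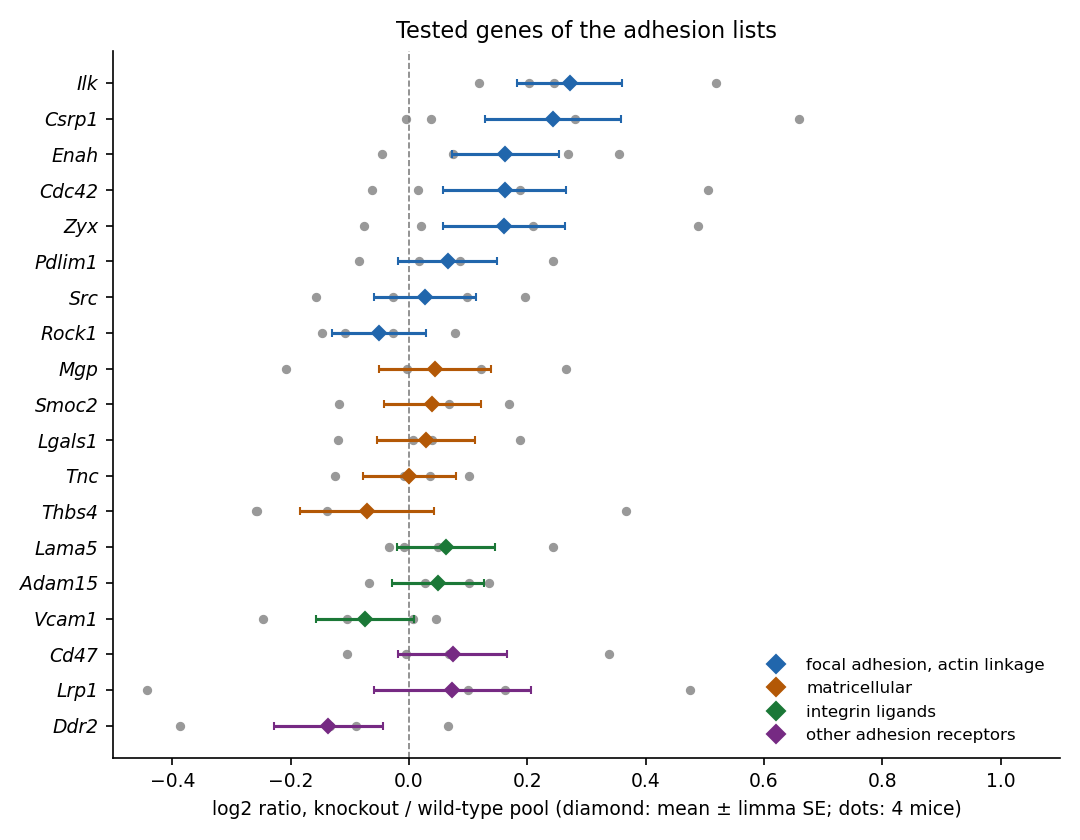
Log2 ratio of knockout over wild-type pool (x axis) for the 19 tested genes of the adhesion lists, as mean ± limma's moderated SE (diamonds, coloured by list) with the 4 mice as dots. Ilk is the only one with all 4 mice above 0; the matricellular genes lie between -0.071 for Thbs4 and 0.044 for Mgp.

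Markers of other cell types were also few. Of the tested ones, 4 were of fibroblasts, 3 of macrophages, and 1 each of smooth muscle, endothelium, skeletal muscle and red blood cells; 0 passed in limma. Their log2 ratios of knockout over pool had a median of -0.035 for fibroblasts (2 of 4 above 0) and 0.17 for macrophages (2 of 3 above 0). The 1 clone each was at 0.18 for smooth muscle (Notch3), 0.0024 for endothelium (Eng), -0.021 for skeletal muscle (Tnni2) and 0.11 for red blood cells (Sptb), and the 2 tested heart muscle markers had a median of 0.11. The macrophage median and the Notch3 value were thus as high as the focal adhesion median of 0.16. Of the macrophage markers, Lyz2 lay at 0.18 and Csf1r at 0.17, but C1qa lay at -0.11. Only Pcolce of the fibroblast list, which encodes an enhancer of procollagen processing, had an unadjusted p under 0.05. It lay at -0.29 ± 0.11 (moderated SE, limma adjusted p = 0.348), and at -0.16 without mouse 4. Pcolce was below the pool in 4 of 4 mice, a share not counted over all clones, and over 2 times background on 8 of 8 arrays. Most of its ratio came from 1 orientation: it read -0.55 with the mouse RNA in Cy3 and -0.029 in Cy5 (dye effect, limma adjusted p = 0.102). Of the tendon and cartilage markers, 1 was named and 0 were tested. Their part in the 4 genes' ratios was not tested.

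The named genes whose ratios followed each member most closely over the 8 arrays were sought among 281 bright named clones with all spots kept. For Ilk these were Srl, which encodes sarcalumenin, a calcium-binding protein of the sarcoplasmic reticulum, with Pearson's r = 0.956, and Fmo5, a flavin monooxygenase, with r = 0.929. Both split by dye as Ilk did: Srl read 0.41 with the mouse RNA in Cy5 and -0.15 in Cy3, and Fmo5 read 0.44 and -0.23. For Tnc they were AI854703 (r = 0.920) and Armcx6 (r = 0.805), which also read higher in Cy5. For Thbs4 they were Fbxl18, an F-box gene (r = 0.877), and Ptpn23, a phosphatase-like gene of endosomal sorting (r = 0.876), which read lower in Cy5. Zyx, whose dye effect did not pass, was followed by Kcmf1, a ubiquitin ligase (r = 0.807), and Sptbn1, a spectrin of the membrane skeleton (r = 0.777), and neither differed by more than 0.03 between the orientations. The 8 arrays come from 4 mice and share the pool and the dye orientations, so r describes the pattern over arrays and not a knockout response.

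The size of the ratios depended on how background was treated. For Ilk the log2 ratio was 0.56 with plain subtraction, 0.44 with a smaller normexp offset of 10 and 0.13 with no correction, against 0.27 in the main setting. For Thbs4 these values were -0.22, -0.14 and -0.0032, against -0.071. Zyx lay at 0.29 with the offset of 10 and at 0.082 with no correction, and with plain subtraction it had no value on all 8 arrays. In none of these settings did a member pass in limma (adjusted p from 0.257 to 0.992). The 2 calls made for the 4 genes under any setting, Ilk up and Thbs4 down, came from the Cy5 arrays alone. That setting called 848 of 11326 clones, against 0 of 8142 in the main setting.

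**Figure D5:**
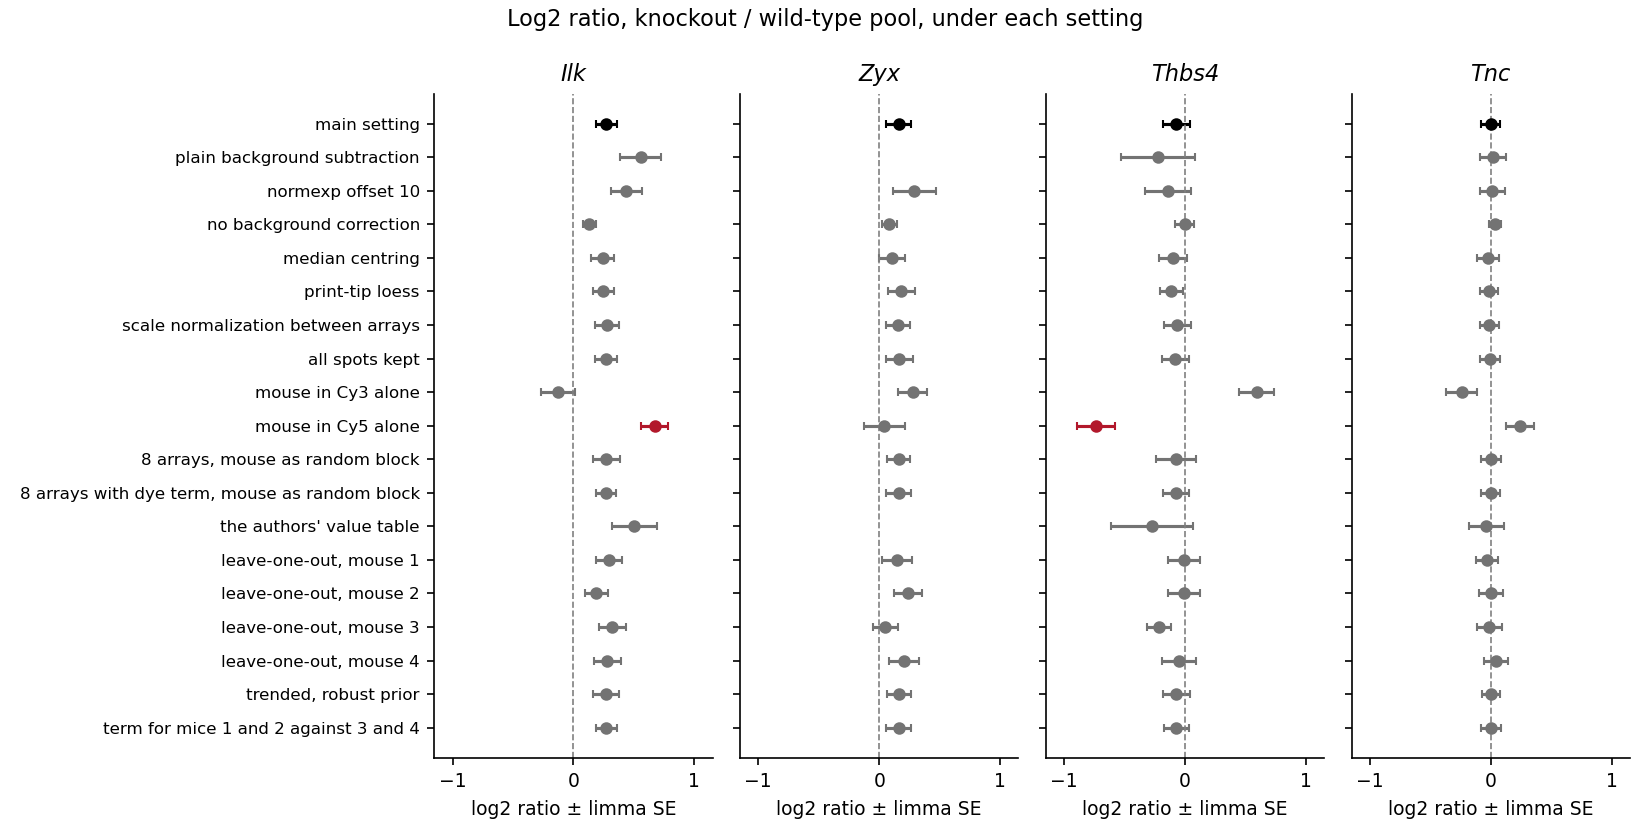
Log2 ratio of knockout over wild-type pool ± limma's moderated SE (x axis) for each gene under the main setting (black) and each alternative (grey; red where limma's adjusted p is under 0.05); a missing point means no value on all arrays used. Ilk stays above 0 except on the Cy3 arrays alone, at -0.13, and the red points are Ilk at 0.67 and Thbs4 at -0.74 on the Cy5 arrays alone.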

How the data were processed

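The deposited scanner files give, per the file headers, the median pixel intensity of each spot and its local background at 635 nm (Cy5) and 532 nm (Cy3), unnormalized; per the labels, cDNA was labelled indirectly. No source used here names the image software. The authors' deposited value table gives each spot a score. What its values are relative to is unstated: each column ran with the background-subtracted log2 ratio of the mouse to the pool (lowest Spearman's rho over spots 0.998). The difference between them had equal quartiles on each array to 3 digits, between -1.09 and 0.51 by array; no source used here states what set that shift. The column medians ran from -0.58 to 0.024.

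Intensities were corrected with normexp (offset 50, which compresses dim spots' ratios) and normalized by loess in limma 3.58.1 under R 4.3.3; flagged spots had weight 0 and were left out. Ratios were turned to knockout over pool, spots of 1 clone averaged, then the 2 arrays of a mouse. The 8142 clones with values on all 8 arrays were tested by an intercept-only limma fit with Benjamini-Hochberg adjustment at 0.05. Dye effects came from a fit of 8 arrays with mouse as a random block (statmod 1.5.0); a gap is Cy5 minus Cy3 in that fit. No scan date or slide was recorded. The number of arrays limits the precision. The fit was run on simulated data with known changes. There the spread was drawn array by array, with no shared mouse effect and no pool error. The simulated mice thus spread less than the real ones, so that run sets no error rate for these data.

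Clones were named through the RefSeq table of GRCm38.p6, 964 spots by transcript and 500 by synonym or symbol of 20205. No build is named in the files, so no coordinates are given. Members and lists were chosen with earlier results of these data known. Named were the 4 members, list genes beyond 0.2 in log2 ratio or with 1 sign on all 8 arrays, and the 2 bright named genes most like each member; every other list gene given with a value was named after its value was seen. A gene with several tested clones was represented by its brightest. Figures used matplotlib 3.10.9.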

Additional observations from a re-analysis of the deposited data

How the results depend on the processing

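Of clones passing the adjusted threshold for knockout over pool in limma, the count was 0 in the main setting (936 at an unadjusted p under 0.05), 136 of 8142 with median centring (73 higher, 63 lower), 126 of 3544 brighter clones (11 higher, 115 lower), 848 of 11326 on the Cy5 arrays alone (208 higher, 640 lower), 174 with 8 arrays and mouse as a random block (22 higher, 152 lower) and 169 with a dye term added (17 higher, 152 lower); none of the 4 genes passed in these except Ilk and Thbs4 on the Cy5 arrays alone. With 1 mouse left out it ran from 0 to 87, the highest without mouse 1. All 4 genes fell under the brightness filter and had no value in that setting. Ilk lay at 0.67 on the Cy5 arrays and turned to -0.13 on the Cy3 arrays; Thbs4 lay at -0.74 and turned to 0.59. Tnc, near 0, turned to -0.019 with median centring, -0.016 with print-tip loess, -0.011 with scaling between arrays, -0.0031 with all spots kept, -0.24 on the Cy3 arrays, -0.035 in the authors' value table, and lay between -0.032 and 0.043 with 1 mouse left out. Enah turned to -0.27 on the Cy3 arrays. Zyx lay above 0 in all 16 alternatives that gave it a value, from 0.044 to 0.29. With 1 mouse left out, Ilk ran from 0.19 to 0.32, Zyx from 0.052 to 0.24 and Thbs4 from -0.22 to -0.0090. The count of dye effects was 1220 in the main setting (378 higher in Cy5, 842 lower) and 1432 with median centring (736 and 696). With all spots kept it was 1156 of 20160 (216 and 940). With 1 mouse left out, an alternative chosen after seeing the data, it ran from 259 to 1085. It was lower than in the main setting whichever mouse was left out. Without mouse 1 it was 507 of 8142 and without mouse 2 it was 1085 of 8142. Without mouse 3 it was 259 of 11878 and without mouse 4 it was 275 of 9501. The causes were not tested. Each ratio compares mouse and pool within a spot, but no test against separate control mice was possible because the control is 1 pool. Low signal over background limits all 4 genes.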
